A study of Mus musculus with 3 samples.

Results

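The subject is the gene expression of a primary culture of mouse ciliary body pigment epithelium (CBPE), set against primary cultures of iris (IPE) and retinal (RPE) pigment epithelium. Each culture was measured on 1 array, so every value is a single measurement with no replicate error and no test was possible. A gene was taken as a member when its CBPE signal was at least 2-fold above, or at least 2-fold below, the signals of both other cultures. Each array was first given a floor at the median of its own non-control probe sets, 14.5 for IPE, 17.3 for CBPE and 16.8 for RPE, and signals under the floor were raised to it. Of 13345 genes above the floor on at least 1 array, 291 (2.18%) were above both others in CBPE and 292 (2.19%) were below both, together 583 (4.37%). These counts describe the 2-fold rule and are not evidence of a difference between tissues.

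All 3 cultures came from adult C57BL/6 donors of 6 to 8 weeks, and the series title asks about thrombospondin-1 in the T cell response to such cells. Iris and ciliary body were loosened with Dispase and DNase I and grown in RPMI 1640 with 10% fetal bovine serum. The RPE eyecup, cut behind the ciliary processes, was loosened with trypsin and grown in DMEM with 20% serum, so medium, enzyme and tissue cannot be told apart in any difference between CBPE and RPE. Every culture passed its last night in medium free of serum, and cytokeratin-positive cells made up over 95% of CBPE and RPE and over 99% of IPE. A time of 14 days in culture is given for CBPE and RPE only, and the number of animals behind a culture is not stated in the labels.

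The ciliary body lies between iris and retina and is covered by a double epithelium that derives from the optic cup. Its outer, pigmented layer faces a stroma rich in blood vessels, smooth muscle, fibroblasts and resident leukocytes. Together with the inner, unpigmented layer it moves ions and water into the posterior chamber to form aqueous humour. Melanin is made in melanosomes by tyrosinase and its relatives Tyrp1 and Dct, under the transcription factor Mitf.

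The arrays had been scaled alike, with a trimmed mean of 100.001 on each, but their signal ranges differed. The spiked hybridisation controls had a geometric mean signal of 3192 in CBPE, 1239 in IPE and 1941 in RPE. The 99th percentile was 3846, 2408 and 3247 in the same order, whereas the 75th was highest in IPE. The 5′ probe set for 18S ribosomal RNA gave 274.3 in CBPE but 17.6 in IPE and 27.7 in RPE. Actb control probe sets at the 3′ end exceeded those at the 5′ end 2.26-fold in CBPE and 2.25-fold in RPE but 1.503-fold in IPE, and for Gapdh the value was 1.23 in CBPE, 1.25 in RPE and 0.940 in IPE. Bacterial control transcripts absent from the samples reached 20.2 on the CBPE array, above its floor, so a CBPE signal under 20.2 is treated as a bound of 20.2 when a fold is given. Pooled over genes with several probe sets above a signal of 100, probe sets of a gene differed with an SD of 0.49 in the log2 difference of CBPE and IPE and 0.29 in that of CBPE and RPE. The part of these array differences in the results was not tested.

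The label was set against marker genes. The cytokeratin gene Krt8, of simple epithelia, was above both others in CBPE, with a signal of 95.3 in CBPE, compared with 17.4 in IPE and 26.2 in RPE, and its 3 probe sets ran the same way. Krt18, the partner of Krt8 in filaments, was at 422 in CBPE, with 144 in IPE and 219 in RPE, and missed the limit against RPE. The epithelial cadherin gene Cdh1 was under the floor on all 3 arrays. Of 17 tested keratins and epithelial junction genes, 2 (11.8%), Krt8 and F11r, were above both, beside 2.18% of all genes. Cldn1 of that list was below both (5.88%, beside 2.19%), at 30.7 in CBPE, 79.3 in IPE and 69.9 in RPE. Of 26 genes of the list on the array, 15 were at the floor in CBPE. The summed signal of the list was 2015 in CBPE, 2825 in IPE and 1374 in RPE. The melanin gene Tyr, which encodes tyrosinase, was at 384 in CBPE by its brightest probe set but at 7.8 and 11.7, under the floor, by its other 2. Dct and Pax6, which mark pigmented and optic cup epithelium, were under the highest absent control there at 2 and 19.4. The leukocyte and endothelial markers described next were highest in CBPE, so the culture is called CBPE after its label, without a claim that it held pigment epithelium alone. In RNA from a whole culture, fewer cells of a type and less RNA per cell cannot be told apart.

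Most members above both others had low signals. Above both, the CBPE signal ran from 33.6 to 8669 with a median of 83.4, and 34 of 291 reached 1000. Both other arrays were at the floor for 80 of these genes, 1 was for 74 and neither was for 137. Below both, the median signal was 38.9 in CBPE, well under 150.2 in IPE and 102.3 in RPE, and 58 of 292 were at the floor in CBPE. At least 4-fold differences against both were found for 38 genes above and 15 below. Both comparisons share the single CBPE array, so anything particular to that array enters both. Against IPE alone, 1513 genes (11.8% of 12831) were higher in CBPE and 1609 (12.5%) lower, and against RPE alone 548 (4.26% of 12860) and 482 (3.75%). By the same rule IPE stood apart from both others for 1671 genes and RPE for 239.

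**Figure D1:**
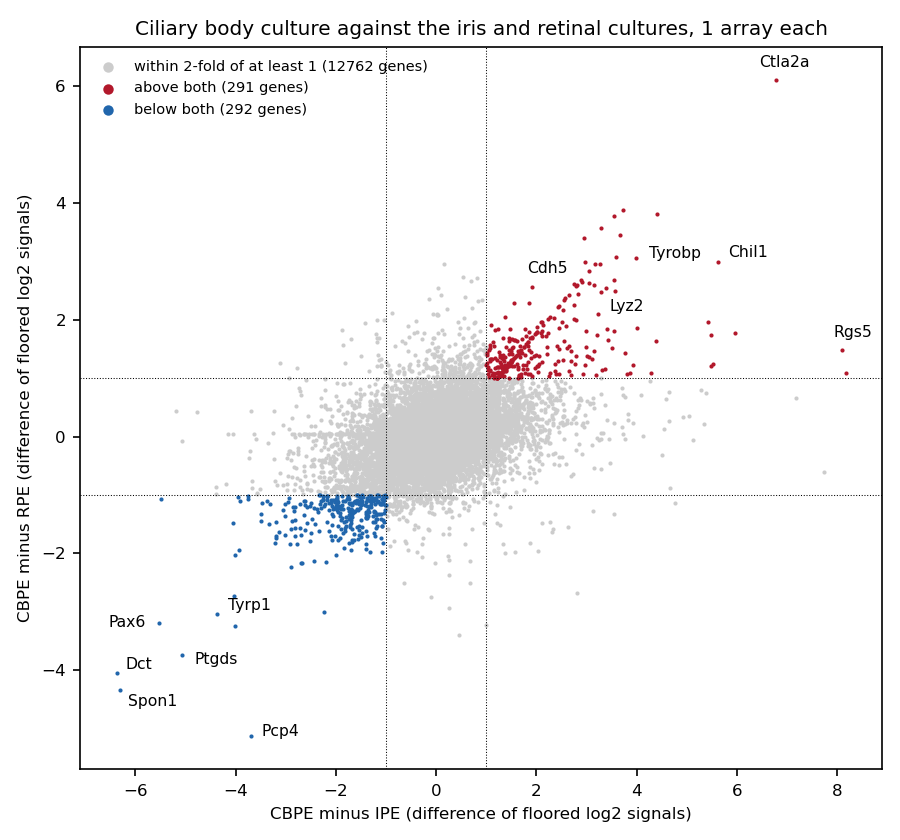
Log2 difference of CBPE minus IPE (horizontal axis) and CBPE minus RPE (vertical axis) for 13345 genes, 1 point per gene, from 1 array per culture. Coloured points mark the 291 genes at least 2-fold above both others and the 292 at least 2-fold below both.

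The even split between directions depended on the scaling. Members above both made up 49.9% of all members as deposited, 62.3% after quantile normalization and 39.7% when the arrays were given equal medians. Giving the arrays equal medians moved the median log2 difference of CBPE minus IPE over all genes from 0.08 to -0.18. The direction varied with the level too. Of 4621 genes with a geometric mean signal under 50, 184 (3.98%) were above both and 75 (1.62%) below both. Between 100 and 500 the counts were 40 and 114 of 4734, and at 1000 or more 15 and 3 of 911. This mean is taken from the same 3 signals as the call. A gene above both has 2 lower signals and a gene below both 2 higher ones, so level and direction are tied by the rule. Under all the alternatives together, 44 genes stayed above both and 18 stayed below both. Just inside the limit lay Fgd5, Agpat1 and Zfpm2 above, and Kctd1, Fam189a2 and Fam120c below. Just outside lay Acyp2, Nrros and Erich3 above, and Fnbp1l, Pbrm1 and Bclaf1 below.

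With signals under the floor raised to it, the furthest gene above both was Ctla2a, which encodes an inhibitor of cysteine proteases of the cathepsin kind, first found in activated T cells. Its signal was 1597 in CBPE, 13 in IPE and 23.1 in RPE, at least 110.1-fold above IPE and 69.1-fold above RPE. The neighbouring gene Ctla2b, of the same family, was at 120.3 in CBPE, compared with 3.2 in IPE and 12.3 in RPE, so CBPE alone was above the floor. Both promoters are shown because the genes differ little in sequence and were high in the same culture. In the 250 bases upstream of their starts, 208 of 228 aligned bases were identical (91.2%). The stretches lie at chr13:60936626-60936775 for Ctla2a and chr13:60897470-60897611 for Ctla2b, both on the minus strand of RefSeq's GRCm38.p6, and capitals mark bases that differ or have no partner in the other gene.
Ctla2a: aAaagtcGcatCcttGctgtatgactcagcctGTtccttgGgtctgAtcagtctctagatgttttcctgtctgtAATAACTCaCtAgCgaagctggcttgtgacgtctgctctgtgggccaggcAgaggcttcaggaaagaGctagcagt
Ctla2b: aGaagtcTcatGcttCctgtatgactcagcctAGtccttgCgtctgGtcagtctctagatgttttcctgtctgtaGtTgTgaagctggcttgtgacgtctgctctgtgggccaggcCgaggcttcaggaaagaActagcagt
Ctla2a and Ctla2b are near-identical copies, so a probe set of either may also read the other. Among 19 tested cathepsins and inhibitors of that list, the third member above both was Ctss, the lysosomal protease cathepsin S of antigen-presenting cells, at 347 in CBPE, with 92.3 in IPE and 58.5 in RPE.

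Secreted innate proteins came next. Chil1, a chitinase-like protein of macrophages and injured epithelium, was at 5938.5 in CBPE, 120.1 in IPE and 744 in RPE, 49.4-fold above IPE and 7.98-fold above RPE. Of the 14 tested acute phase and secreted innate proteins, 3 (21.4%) were above both, beside 2.18% of all genes, and none below. The other members were Hp (haptoglobin, which binds free haemoglobin) at 706 in CBPE, compared with 68.5 in IPE and 317 in RPE, and Rarres1, a retinoid-induced membrane protein, at 963 in CBPE, with 21.4 in IPE and 415 in RPE. The median log2 difference over this list was 0.96 against IPE and 1.00 against RPE, beside 0.08 and 0.02 over all genes.

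Leukocyte genes were a large group above both. Of 32 listed macrophage and leukocyte markers, 26 were tested. Of these, 12 (46.2%) were above both and none below, beside 2.18% of all genes, with medians of 1.59 against IPE and 1.32 against RPE. The lysozyme genes were the brightest, with Lyz1 at 2804 in CBPE, 240.2 in IPE and 435 in RPE, and Lyz2 at 1288 in CBPE, compared with 131 in IPE and 232 in RPE. These near-identical copies of an antibacterial enzyme of myeloid cells may share probes. Tyrobp, the signalling adaptor of many myeloid receptors, was at 231 in CBPE, with 14.4 in IPE and 27.7 in RPE. Cd52, a small surface glycoprotein, was at 184 in CBPE, 2.1 in IPE and 16.7 in RPE, and Csf1r, the receptor through which macrophages are kept alive, at 116 in CBPE, compared with 13.9 in IPE and 40 in RPE. Both other cultures were at or near the floor for Tyrobp and Cd52, while RPE held some Csf1r signal. Lcp1, Cd53, Fcer1g, Coro1a, Itgb2, Adgre1 and Laptm5 were also above both, at CBPE signals of 131, 110.4, 90.7, 60.2, 69.6, 58.1 and 49.5. The summed signal of the 32 listed markers was 5885 in CBPE, 811.8 in IPE and 1159 in RPE. Most of the CBPE sum came from Lyz1 and Lyz2, which may share probes. Of the 32, 6 were at the floor in CBPE, 21 in IPE and 19 in RPE. The pan-leukocyte gene Ptprc was among these 6 at 8.1, with Itgam, C1qa, C1qc, Mrc1 and Hcls1. These 6 were at the floor on all 3 arrays and so not among the 26 tested, each of which was above the floor in CBPE. Some of the 26, Cd52, Lcp1 and Fcer1g among them, were tested through CBPE alone. The 46.2% and the medians lean towards CBPE by that choice. The part of leukocytes in the results was not tested. With a fixed floor of 100 on each array, 3 of the markers stayed above both.

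A further 39 genes of blood and immune cells, grouped after their values were seen, were above both, with CBPE signals from 35 to 1260 and a median of 50.3. The group was drawn from the members alone, so its size has no share over all genes to be read against. Plac8, a small cysteine-rich protein of myeloid cells, was the brightest at 1259.7 in CBPE, with 186 in IPE and 206 in RPE. Srgn, the granule proteoglycan serglycin, was at 285 in CBPE, 27.1 in IPE and 48.6 in RPE. The group also held Camp, an antimicrobial peptide of neutrophils, at 303, and Cd93, shared by endothelium and myeloid cells, at 248 in CBPE. Wfdc17, a secreted protein of macrophages, was at 136 in CBPE, compared with 17.3 in IPE and 17.1 in RPE. Of 3 C-type lectin receptor genes of myeloid cells in the group, Clec4d was the brightest at 172 in CBPE, with 10.4 in IPE and 30.5 in RPE, ahead of Clec4n and Clec4e.

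Endothelial genes formed a dimmer group of much the same kind. Of 28 tested endothelial markers, 11 (39.3%) were above both and none below, beside 2.18% and 2.19% of all genes. The medians were 1.14 against IPE and 1.05 against RPE, beside 0.08 and 0.02 over all genes. Some of the 28, Cdh5 and Cldn5 among them, were tested through CBPE alone. The 39.3% and the medians lean towards CBPE by that choice. Cdh5, the cadherin of endothelial junctions, was at 108 in CBPE, 7.8 in IPE and 16 in RPE, at least 7.47-fold above IPE and at least 6.45-fold above RPE, but its other probe set gave 9.6, 8.2 and 13.1 in the same order, under every floor. Pecam1, a junctional adhesion molecule, was at 54.6 in CBPE, compared with 14.2 in IPE and 2.4 in RPE, and Cldn5, the tight junction claudin of vessels, at 79.1 in CBPE, with 11.6 in IPE and 2.3 in RPE. Icam2, Esam, Nos3, Robo4, Erg and Sox18 reached 83.4, 87.1, 66.2, 56.2, 58.4 and 51.9 in CBPE. Some defining genes did not follow: Vwf was at 5 in CBPE, 5.8 in IPE and 1.1 in RPE, and Flt1, a receptor for vascular growth factor, at 9.3 in CBPE. The summed signal of the 29 listed markers was 3313 in CBPE, 1581 in IPE and 1276 in RPE, and 3 were at the floor in CBPE, 20 in IPE and 17 in RPE. The part of endothelial cells in the results was not tested. The count was 5 with the floor at the 60th percentile and 0 with a fixed floor of 100. The Notch genes Notch4, Heyl and Nrarp, active in vessels, were 3 of 15 tested Notch genes above both (20%), beside 2.18% of all genes. Notch4 was at 78.4 in CBPE, compared with 5 in IPE and 11.6 in RPE. Pgf and Pdgfb, ligands that act on vessels and pericytes, were at 100.3 and 129 in CBPE and at most 21.4 elsewhere.

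Some genes of contractile and mural cells were brighter. Rgs5, a brake on G protein signalling and a pericyte marker, was at 3973.5 in CBPE, with 10.4 in IPE and 1416 in RPE, and its 4 probe sets all placed the cultures in this order. Actg2, the enteric smooth muscle actin, was at 2209 in CBPE, 162 in IPE and 816 in RPE. Of 15 tested pericyte and smooth muscle markers, 5 (33.3%) were above both, beside 2.18% of all genes, and none below. The summed signal was 36477 in CBPE, 14639 in IPE and 23973 in RPE. Mcam, an adhesion molecule of mural and endothelial cells, was at 321 in CBPE, compared with 117 in IPE and 104 in RPE, so RPE was lowest there, unlike for Rgs5 and Actg2. The proteoglycan gene Cspg4 was at 119.5 in CBPE, with 6.2 in IPE and 46.6 in RPE, and Synpo2, an actin-binding protein of muscle, at 37.8 in CBPE, 7.7 in IPE and 12.2 in RPE, with both others under the floor. In contrast, the smooth muscle myosin gene Myh11 was lower in CBPE, at 22.1, than in IPE, at 99.4. The part of mural cells in the results was not tested. With a fixed floor of 100, or when all probe sets were averaged, the count was 3. It was also 3 without probe sets whose suffix (_s_at, _x_at or _a_at) marks probes shared by several transcripts, including those of a single gene.

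**Figure D2:**
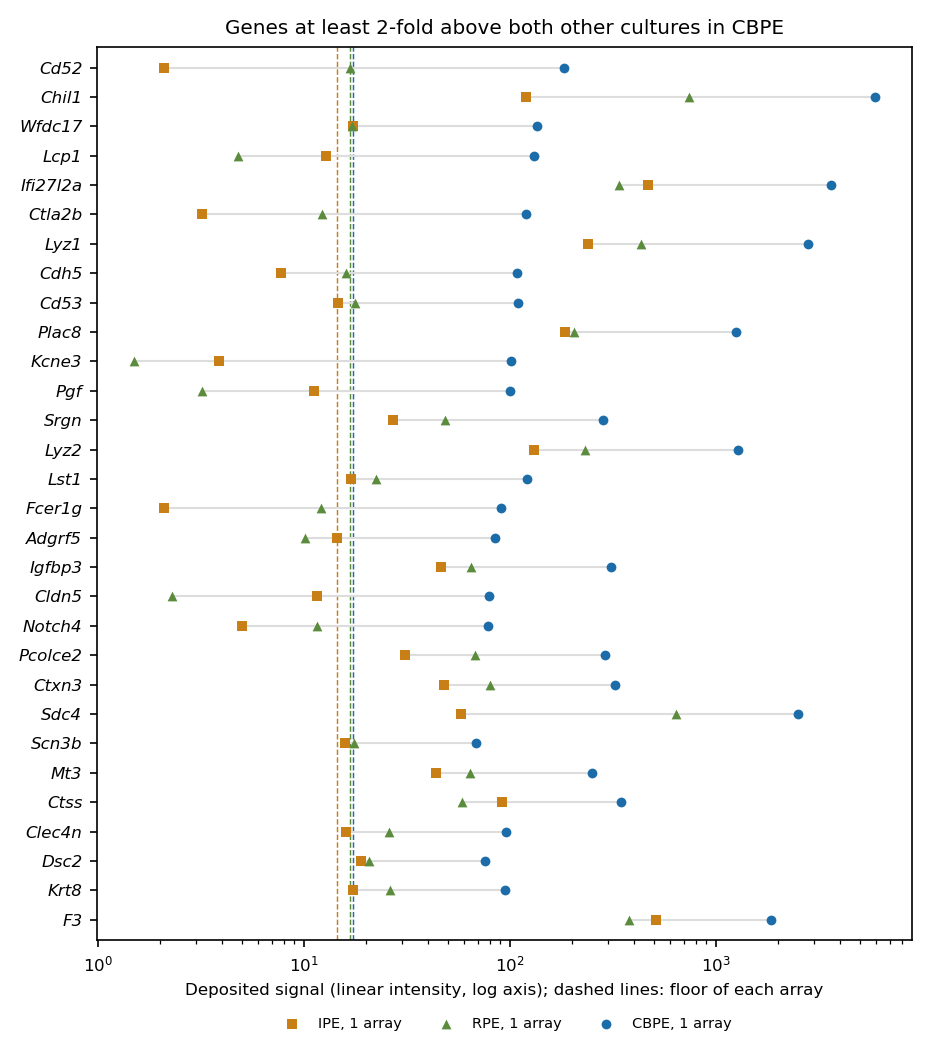
Deposited signal (linear intensity on a log axis) of the 20 furthest named genes measured on all arrays and the 10 brightest at the floor in both other cultures, all at least 2-fold above both in CBPE, with 1 symbol per culture and a dashed line at each array's floor. Chil1 reached 5938.5 in CBPE, while Cd52 and Lcp1 were at the floor in IPE and RPE.

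Matrix genes were among the brightest members. Eln, which encodes the elastin of elastic fibres, was at 2884 in CBPE, compared with 46 in IPE and 841 in RPE, 62.7-fold above IPE and 3.43-fold above RPE. Mmp3, the matrix-degrading stromelysin, was at 6095 in CBPE, with 133 in IPE and 2565 in RPE, and Timp3, an inhibitor of such enzymes, at 5102 in CBPE, 1297 in IPE and 2249 in RPE. In each of these, RPE was between CBPE and IPE. Of 28 tested metalloproteinases and inhibitors, 4 (14.3%) were above both, beside 2.18% of all genes, with Mmp12, the elastase of macrophages, at 618 and Adam12 at 209 in CBPE. Tnmd, a tendon glycoprotein, was at 4176 in CBPE, compared with 0.9 in IPE and 1972.5 in RPE, and Prelp, a matrix proteoglycan, at 1563 in CBPE, with 525 in IPE and 495 in RPE. Tgfbi, a matrix protein induced by TGF-β, was at 1072 in CBPE, 73.2 in IPE and 503 in RPE, and Tnc, the matrix glycoprotein tenascin-C, at 3960.1 in CBPE, compared with 1147 in IPE and 1203 in RPE. Tnc was named after its values were seen. Sdc4, a heparan sulfate receptor of the cell surface, was at 2508 in CBPE, with 58 in IPE and 640.1 in RPE. The other Sdc4 probe set gave 221.2 in CBPE, 125.5 in IPE and 121.3 in RPE, under 2-fold from each. F3, tissue factor that starts clotting, was at 1858 in CBPE, 514 in IPE and 379.7 in RPE. F3 was lowest in RPE, unlike Eln, Mmp3 and Tnmd. Fabp4, the fatty acid carrier of adipocytes, macrophages and capillaries, was at 141 in CBPE, compared with 4.8 in IPE and 18.1 in RPE. Myh9, the heavy chain of non-muscle myosin, was at 5983 in CBPE, with 1901 in IPE and 2239.5 in RPE, and 4 of its 5 probe sets had CBPE highest. It and Tm4sf1, a surface protein of vessels at 3273 in CBPE, 602 in IPE and 1565 in RPE, were named after their values were seen. Another Tm4sf1 probe set had IPE above CBPE. Fibroblast markers as a list were less apart: 1 of 24 tested, Tcf21, was above both, at 34.9.

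Immune signalling genes were mixed. Of 27 tested chemokines, 6 (22.2%) were above both and 1 (3.70%) below, beside 2.18% and 2.19% of all genes. Ccl9, which draws myeloid cells, was at 233 in CBPE, compared with 25.1 in IPE and 69.6 in RPE, and Cxcl9, an interferon-induced chemokine for T cells, at 170.1 in CBPE, with 1.3 in IPE and 48.5 in RPE. Cxcl2, Pf4, Ccl5 and Ccl3 had CBPE signals of 104, 78.9, 54.5 and 48.6, and Cxcl15 was below both at 7.7 in CBPE. With a fixed floor of 100 the count above both was 1. The summed leukocyte markers given above were highest in CBPE too, and their part in the immune counts was not tested. Of 30 tested interferon-stimulated genes, 2 (6.67%) were above both, beside 2.18% of all genes. Ifi27l2a, an interferon-induced protein, was at 3615.5 in CBPE, 468 in IPE and 341 in RPE. The nucleic acid sensor gene Zbp1 was at 452 in CBPE, compared with 209.9 in IPE and 179 in RPE. Of 19 tested antigen presentation genes, 2 (10.5%) were above both, beside the same 2.18%. H2-K1, a class I histocompatibility molecule, was at 5488 in CBPE, with 1857 in IPE and 1752 in RPE, and Nlrc5, which drives class I genes, at 50.9 in CBPE. All 4 H2-K1 probe sets carry the suffix _x_at, and only the brightest was at least 2-fold above both. Of 18 tested ligands for T cells, Cd40, a costimulatory receptor, was above both at 36.9, and Nt5e, the ecto-enzyme that forms adenosine, was below both at 37.7 in CBPE, 132 in IPE and 115 in RPE. None of 26 interleukins and receptors and none of 13 complement genes was on either side. Clu and Serping1 of the complement list, named after their values were seen, were bright in all cultures, at 7277 and 3097 in CBPE.

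The gene in the title was within the limit. Thbs1, thrombospondin-1, had a signal of 6419 in CBPE, compared with 2991.5 in IPE and 3832 in RPE, by its brighter probe set and 2739, 3146 and 1591 in the same order by its other, so the probe sets disagree on the order of IPE and CBPE. Of its receptors, Cd47 was at 1692.5 in CBPE, with 855 in IPE and 1220.3 in RPE, and Cd36, a scavenger receptor, was above both at 43.1 in CBPE, 12.2 in IPE and 11.7 in RPE. Of the TGF-β ligands, Tgfb1 was at 283 in CBPE, compared with 201 in IPE and 147 in RPE. Tgfb2 was at 192 in CBPE, with 623 in IPE and 179 in RPE, and Tgfb3 at 637 in CBPE, 357 in IPE and 402 in RPE. CBPE was thus highest for Tgfb1 and Tgfb3 and 1.07-fold from RPE for Tgfb2, in no case 2-fold from both. Of 23 tested TGF-β response genes, 2 (8.70%) were above both, Tgfbi and Ccn1, beside 2.18% of all genes. Ccn1, a matricellular growth regulator, was at 3447 in CBPE, compared with 852 in IPE and 1486 in RPE, but 2 of its 4 probe sets had RPE highest.

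Some early response and metabolic genes were above both, a minority of each list. Of 26 tested immediate early genes, 4 (15.4%) were, beside 2.18% of all genes. Fos, a subunit of AP-1, was at 371 in CBPE, with 116 in IPE and 145 in RPE, and Klf2, a flow-responsive factor of endothelium, at 181 in CBPE, 19.9 in IPE and 87.2 in RPE. Egr2 was at 100.4 in CBPE. Ldha, lactate dehydrogenase A, was the brightest member, at 8669 in CBPE, compared with 3736 in IPE and 3491 in RPE, and Car9, a carbonic anhydrase induced by hypoxia, was at 36.8. These were the 2 members among 26 tested hypoxia and glycolysis genes (7.69%). The list medians were 0.39 against IPE and 0.78 against RPE for early genes and 0.47 and 1.06 for hypoxia genes. Later-grouped Higd1a and Fam162a, hypoxia-inducible mitochondrial genes, were bright in all cultures. Higd1a was at 4979.8 in CBPE, with 1171 in IPE and 1458 in RPE, and Fam162a at 6908 in CBPE, 2833 in IPE and 2933 in RPE. Other bright members were Crip1, a LIM protein, at 3827 in CBPE, compared with 85.5 in IPE and 1150 in RPE, and Igfbp3, which binds insulin-like growth factors, at 311 in CBPE, with 46.2 in IPE and 64.9 in RPE. Metal-binding Mt3 was at 250 in CBPE, 44.1 in IPE and 64.2 in RPE, while Mt1, its broadly expressed relative, was below both at 649.9 in CBPE, compared with 2842 in IPE and 1432 in RPE. Tac1, the substance P precursor, was at 176 in CBPE, with 6.8 in IPE and 20.9 in RPE, so 1 of 18 tested peptide genes was above both.

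**Figure D3:**
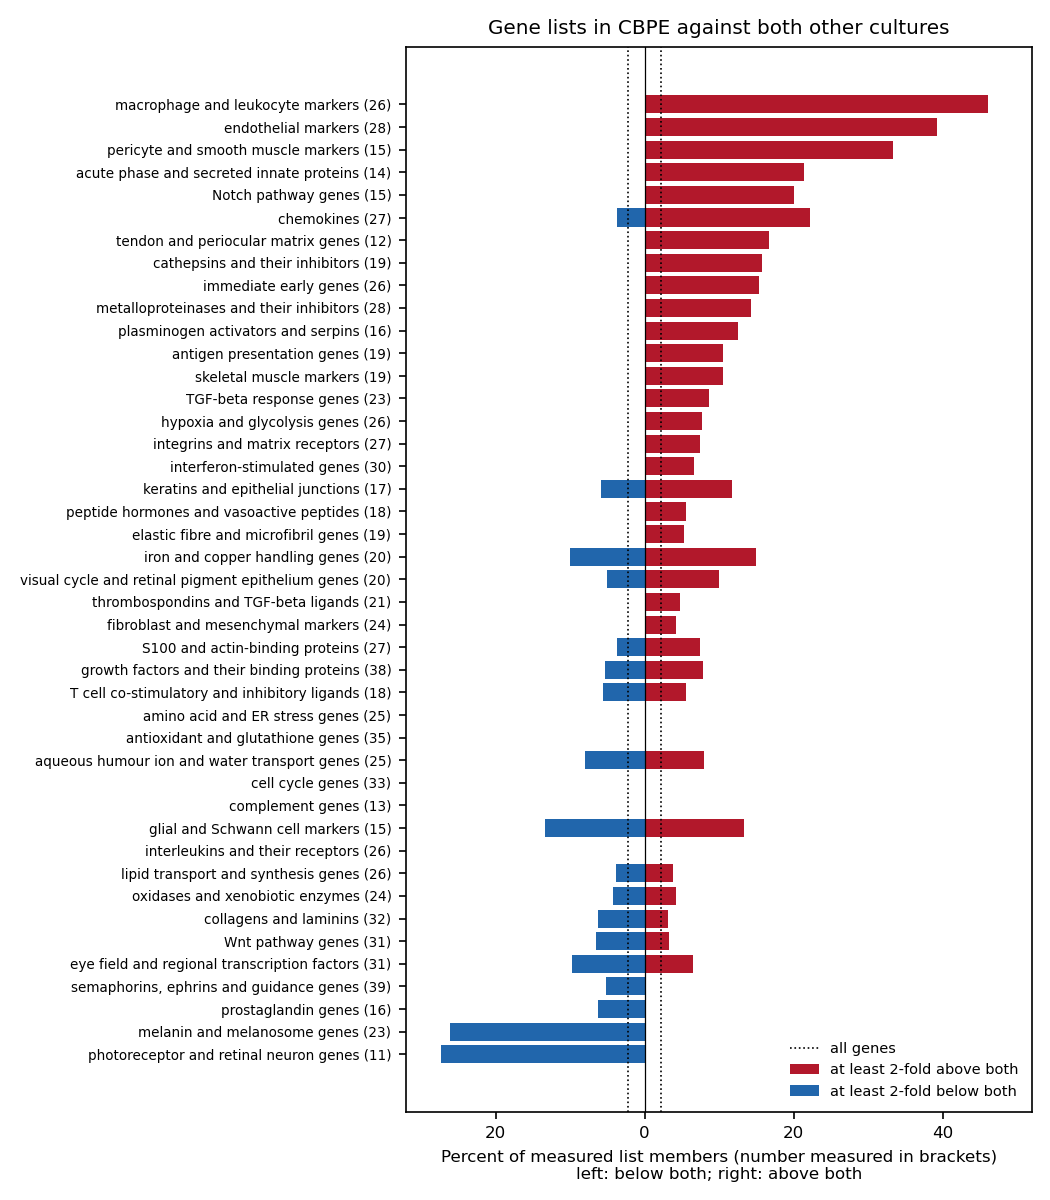
Share of the tested genes of each list that were at least 2-fold above or below both others in CBPE, in percent. Leukocyte (46.2% above) and endothelial (39.3% above) markers had the highest shares above, and photoreceptor genes (27.3%) and melanin genes (26.1%) the highest below. Only 11 photoreceptor genes were tested, and CBPE was highest for 3 of them and lowest for 3. Over all genes the shares were 2.18% above and 2.19% below.

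Melanin genes ran the other way. Of 23 tested melanin and melanosome genes, 6 (26.1%) were below both and none above, beside 2.19% of all genes. CBPE was lowest for 16 of them, and the summed signal was 3206 in CBPE, 11706 in IPE and 4924 in RPE. Dct, dopachrome tautomerase, was at 2 in CBPE, 1429 in IPE and 286 in RPE, at least 70.7-fold below IPE and at least 14.2-fold below RPE. Tyrp1, which acts beside tyrosinase, was at 67.2 in CBPE, compared with 1388 in IPE and 550 in RPE, and its 3 probe sets agreed in order. Tyr itself was at 384 in CBPE, with 1114 in IPE and 493 in RPE, 1.28-fold below RPE and so no member. Rab38 and Rab27a, small GTPases that bring enzymes to melanosomes and move them, were below both. Rab38 was at 176 in CBPE, 667 in IPE and 449 in RPE, and Rab27a at 3.2 in CBPE, compared with 113 in IPE and 38.7 in RPE. Mlana and Hps5 were at 31.4 and 33.1 in CBPE. Mitf was at 63.3 in CBPE, with 321 in IPE and 102 in RPE, and missed the limit against RPE. The summed leukocyte, endothelial and mural markers were highest in the culture in which the melanin sum was lowest, and their part in this was not tested. With a fixed floor of 100, 3 of the list stayed below both.

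The promoters of 4 pigment-related genes, picked after their values were seen, are shown because CATGTG, the core of the E-box that Mitf is known to bind, lies in each. Tspan10, a tetraspanin of pigment cells that is outside the list, was at 3.7 in CBPE, 161 in IPE and 61.5 in RPE. The capitals mark CATGTG or, on the other strand, CACATG. The stretches lie at chr4:80834113-80834212 (plus strand) for Tyrp1, chr14:118052344-118052443 (minus) for Dct, chr11:120442531-120442630 (plus) for Tspan10 and chr7:87493513-87493612 (minus) for Tyr, in RefSeq's GRCm38.p6.
Tyrp1: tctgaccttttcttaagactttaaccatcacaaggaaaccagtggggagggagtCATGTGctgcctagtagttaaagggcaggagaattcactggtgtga
Dct: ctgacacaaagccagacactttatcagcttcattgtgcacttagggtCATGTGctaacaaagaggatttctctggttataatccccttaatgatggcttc
Tspan10: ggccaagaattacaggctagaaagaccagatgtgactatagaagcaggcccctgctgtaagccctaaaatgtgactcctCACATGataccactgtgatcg
Tyr: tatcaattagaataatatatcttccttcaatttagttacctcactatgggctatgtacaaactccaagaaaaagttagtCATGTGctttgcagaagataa
Searched on both strands over the 250 bases upstream of each start, the motif was in 4025 of 32851 promoters (12.3%), in 8 of 26 of the melanin list (30.8%), in 21 of 293 of the genes below both (7.17%) and in 32 of 261 of the genes above both (12.3%). Promoter entries matched 440 of the 583 members. A match is a description of these letters and not a site of binding.

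A few regional eye factors and neural genes were below both. Pax6, which directs the forming eye, was at 19.4 in CBPE, compared with 898 in IPE and 177 in RPE. Tfap2b, a factor of the developing eye, was at 71.7 in CBPE, with 1096 in IPE and 274 in RPE. Lhx2, needed for the optic vesicle, was at 30.8 in CBPE, 306 in IPE and 68.3 in RPE. So 3 of 31 tested eye factors were below both (9.68%), beside 2.19% of all genes, with a list median of -1.14 against IPE and 0.04 against RPE. Six2 at 211 and Tfap2a at 36.7 were above both (6.45%, beside 2.18% of all genes). Of 11 tested photoreceptor and retinal neuron genes, 3 (27.3%) were below both, beside 2.19% of all genes. The rest of the list did not follow: CBPE was highest for 3 of the 11 too. The summed signal was 2406 in CBPE, 704 in IPE and 3229 in RPE. Below both were Pcp4, a calmodulin regulator, at 7.5 in CBPE, compared with 224 in IPE and 606 in RPE, Abca4, the retinoid flippase of photoreceptors and RPE, at 1.5 in CBPE, with 93.5 in IPE and 75.4 in RPE, and the disc rim gene Rom1 at 9.8 in CBPE, 36 in IPE and 61.5 in RPE. CBPE was under its floor for Pcp4, Abca4 and Rom1. Nefm, a neurofilament subunit, was at 2.4 in CBPE, compared with 68.9 in IPE and 70.4 in RPE. Of 13 neural and retinal genes grouped after their values were seen, Amph, which shapes endocytic membranes at synapses, was at 1.7 in CBPE, with 178 in IPE and 37 in RPE, and Slc6a15, an amino acid transporter of neurons, at 3.2 in CBPE, 121 in IPE and 51.1 in RPE. Rbp4, the retinol carrier, was at 44.1 in CBPE, compared with 174 in IPE and 93.3 in RPE.

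Among genes measured above the floor on all arrays, the furthest below both was Spon1, which encodes the matrix protein F-spondin. Its signal was 28.8 in CBPE, with 2292 in IPE and 580.3 in RPE, 79.6-fold below IPE and 20.1-fold below RPE, and all 4 probe sets had CBPE lowest. Ptgds, prostaglandin D synthase and an abundant protein of ocular epithelia, was at 107 in CBPE, 3595 in IPE and 1437 in RPE. Folr1, the folate receptor of epithelia, was at 35.3 in CBPE, compared with 573 in IPE and 334 in RPE, and Cadm1, a cell adhesion molecule, at 24.4 in CBPE, with 397 in IPE and 162 in RPE. All 4 of these were measured above the floor in CBPE. Dio2, which activates thyroid hormone, was at 76.8 in CBPE, 3432 in IPE and 161 in RPE, and Apoe, the lipid carrier, at 292 in CBPE, compared with 3950.2 in IPE and 591 in RPE. Glul, the glutamine synthetase of glia, was at 309.6 in CBPE, with 2558 in IPE and 743 in RPE. In Dio2, Apoe and Glul most of the distance was between IPE and the other cultures. The basement membrane collagen gene Col4a5 was at 216 in CBPE, 1588 in IPE and 586 in RPE, and its neighbour Col4a6 at 31.1 in CBPE, compared with 347 in IPE and 68.3 in RPE. Of 31 tested Wnt genes, 2 (6.45%) were below both and 1 (3.23%) above, beside 2.19% and 2.18% of all genes. Below both were the ligand genes Wnt6, at 0.9 in CBPE, with 196 in IPE and 43.1 in RPE, and Wnt5b, at 13.6 in CBPE, 62.4 in IPE and 40.9 in RPE. Sfrp1, a secreted Wnt antagonist, was above both at 909.6 in CBPE, compared with 364 in IPE and 392 in RPE, though its probe sets differed in direction. Ligands and receptors grouped after their values were seen included Gfra1, the receptor of the neurotrophic factor GDNF, at 8.1 in CBPE, with 262 in IPE and 37.3 in RPE. Tgfbr3, the co-receptor betaglycan, was at 168 in CBPE, 723 in IPE and 370 in RPE. Both had RPE between CBPE and IPE. Gdf10, a ligand of the TGF-β family, was at 25.1 in CBPE, compared with 90.2 in IPE and 93.7 in RPE. Kitl, the ligand of Kit, was at 414 in CBPE, with 3210.3 in IPE and 897 in RPE, while Kit itself, from the blood and immune cells grouped later, was above both at 36.6.

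Ion and water transport genes, which serve aqueous humour formation, did not separate as a list. Of 25 tested, 2 (8%) were above both and 2 (8%) below, beside 2.18% and 2.19% of all genes, with medians of -0.06 against IPE and 0.11 against RPE. The urea transporter gene Slc14a1 was below both at 25.3 in CBPE, 120 in IPE and 204 in RPE, and the chloride exchanger gene Clcn3 at 49 in CBPE, compared with 183 in IPE and 114 in RPE. Gjb2, connexin 26, was above both at 63.3 in CBPE, with 29.7 in IPE and 12.9 in RPE, and Clic6 at 47.4 in CBPE, 23.2 in IPE and 20.7 in RPE. Outside the list, 12 channel and transporter genes grouped after their values were seen were above both. Of the potassium channel genes, Kcnj15 was at 153 in CBPE, compared with 0.3 in IPE and 42.6 in RPE, and Kcne3, an accessory subunit, at 101 in CBPE, with 3.9 in IPE and 1.5 in RPE. Kcnq1, a pore subunit that Kcne3 joins, was at 35.3, and the zinc importer gene Slc39a1 at 1833 in CBPE, 426 in IPE and 753 in RPE. Of the metal-handling list, Slc39a8, an importer of zinc and manganese, was above both at 54.1 in CBPE, compared with 24.6 in IPE and 25.5 in RPE, as was Slc11a1, the metal pump of phagocyte vacuoles, at 50.1 in CBPE, with 23.7 in IPE and 9 in RPE. Slc30a1, which exports zinc, was below both at 49.5 in CBPE, 381 in IPE and 103 in RPE. The antioxidant list had none of 35 tested on either side. Cell cycle genes had none of 33 apart from both, although 19 were at least 2-fold above IPE, and the same held for 14 of 25 amino acid and ER stress genes. Of all genes, 11.8% were at least 2-fold above IPE.

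**Figure D4:**
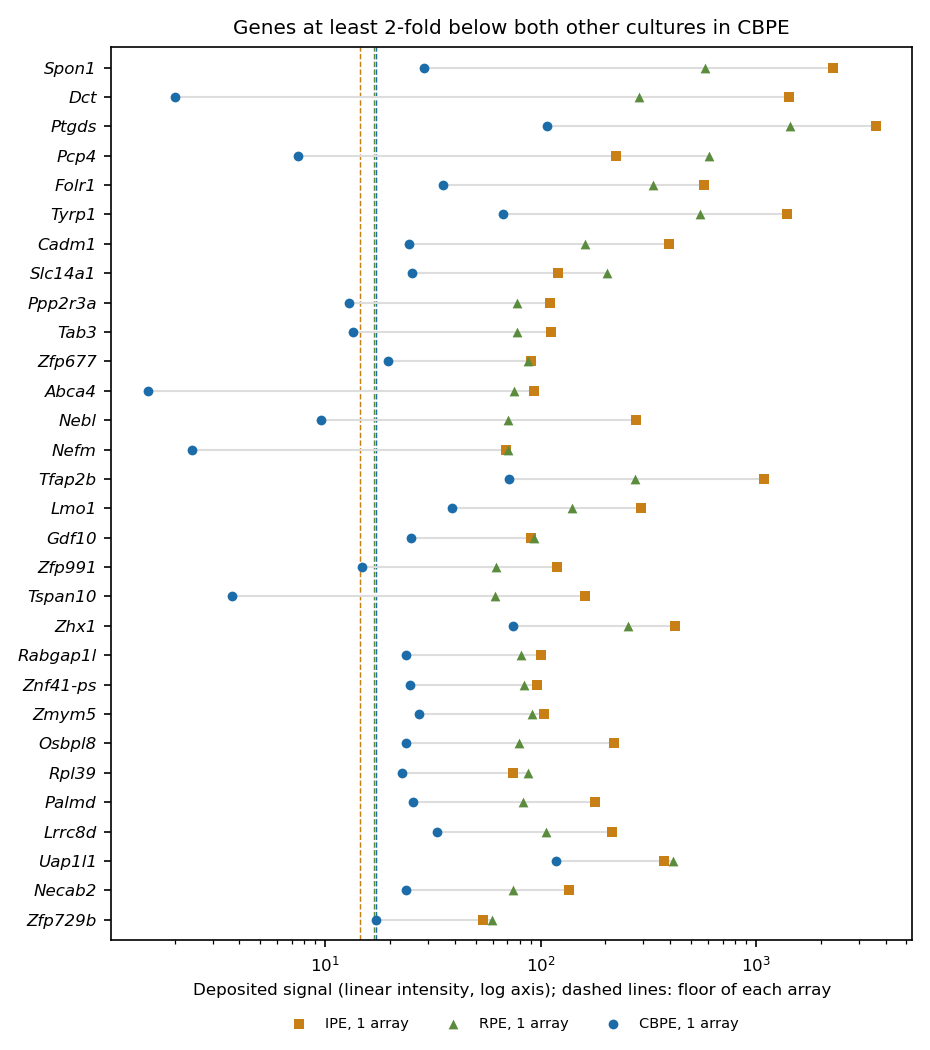
Deposited signal (linear intensity on a log axis) of the 20 furthest named genes measured on all arrays and the 10 brightest at the floor in CBPE, all at least 2-fold below both there, with 1 symbol per culture and a dashed line at each array's floor. Spon1 was at 28.8 in CBPE against 2292 and 580.3, and Dct was under the floor in CBPE.

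Zinc finger genes and other regulators were counted among the members below both. Of the 292, 26 (8.90%) had zinc finger symbols, against 4 of the 291 above both (1.37%) and 363 of all genes (2.72%). This share was computed after the values were seen. A group of 35 chromatin and transcription regulators formed after the values were seen had CBPE signals from 3.5 to 370.5. This group and the next were drawn from the members alone, so their sizes have no share over all genes to be read against, and 167 of the 292 were in no list or group. Stag2, a cohesin subunit, was at 139.8 in CBPE, compared with 488 in IPE and 364 in RPE, and Clock, of the circadian oscillator, at 48.5 in CBPE, with 298 in IPE and 104 in RPE. A like group of 27 genes of membrane traffic, ubiquitin and small GTPases included Ube3a, a ubiquitin ligase, at 206 in CBPE, 752 in IPE and 651 in RPE. Another Ube3a probe set gave 47.8, 97.5 and 41.4 in the same order, so CBPE was not lowest there. The median log2 difference from the closer of the other cultures was -1.19 in the first group and -1.17 in the second.

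Other probe sets of the members, which played no part in choosing them, were set beside the call. Of 129 other probe sets of genes above both, 96 (74.4%) were on the same side of both cultures and 36 (27.9%) were at least 2-fold so. Of 336 other probe sets of genes below both, 173 (51.5%) were on the same side and 53 (15.8%) at least 2-fold. Over all 13345 genes, by the probe set that stood for each, CBPE was highest for 4578 and lowest for 3815. Signals at the floor differ by the floors themselves, of which that of CBPE is the highest. A probe set at the floor in CBPE can thus count as above both but less easily as below, so the 74.4% and 51.5% are not to be compared. Igf1, an insulin-like growth factor, shows this: it was at 174 in CBPE, compared with 1409 in IPE and 386 in RPE, but another of its 4 probe sets gave 340.7, 386.7 and 471.5. Agbl5 was above both by a probe set at 307 in CBPE, 13.3 in IPE and 21.9 in RPE, yet another gave 37.6, 52.4 and 29.5. Agbl5 was named after its values were seen. Among other named members, Ube3a, Slc30a1, Clcn3, Mt1, Dio2, Nrarp, Synpo2, Tm4sf1, Kcnj15, Tfap2a and Wnt6 also had a probe set off the side of their call. Others, Pax6 and Gfra1 among them, had a probe set off it by the difference of the floors alone.

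**Figure D5:**
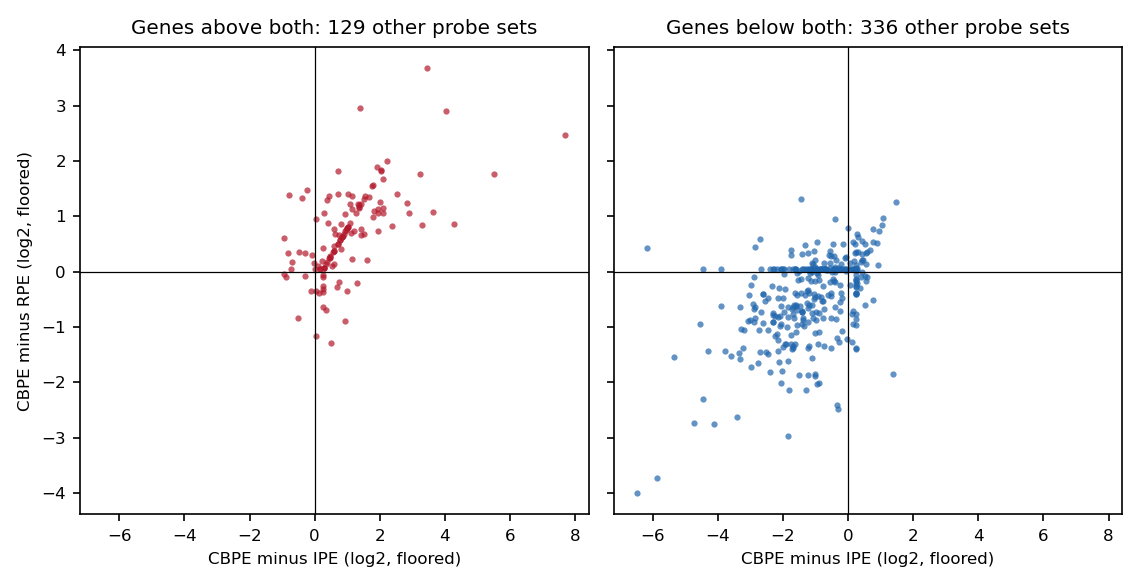
Log2 difference of CBPE minus IPE and of CBPE minus RPE for the other probe sets of the members, those not used to choose them. Of 129 for genes above both, 96 lay above 0 in both, and of 336 for genes below both, 173 lay below 0 in both. Signals at the floor differ by the floors themselves, of which that of CBPE is the highest.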

How the data were processed

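RNA of 3 cultures was measured on 1 biotin-labelled array each. The authors deposited linear intensity values for 45101 probe sets, 64 of them controls, by a summary method not given in the sources used here. Members, gene lists and groups were chosen with earlier results of these data known.

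The deposited intensity values kept their scale. Signals under an array's median were raised to that median, then put on the log2 scale. Of several probe sets, the one brightest on average stood for the gene, which gave 18193 genes. Symbols came from a platform table of 2016, updated through RefSeq's gene table of GRCm38.p6: 1 gene was given for 34958 of 35890 probe sets in the table, several for 932, which named none, and 9160 were not in it. A fold against a signal under the floor is the bright signal over the floor, or over 20.2 for CBPE, written as at least that size.

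Named genes are, per direction, the 20 furthest genes that all 3 arrays measured above their floors and whose probe sets run the same way. To these were added, per direction, 10 bright genes at a floor and up to 8 members per list. Above both, the 10 were the brightest at the floor in both other cultures. Below both, they were at the floor in CBPE and ranked by the dimmer of the other signals. The 4 markers Ctla2a, Chil1, Lyz2 and Cdh5, and Thbs1, Tgfb1, Tgfb2, Tgfb3, Cd36 and Cd47, were named too. Clone names are counted only. There were 43 gene lists. Arrays have no counting depth, and with 1 for each culture their number limits the precision. The alternatives were other scalings, floors and choices of probe set. Scripts were tested on simulated data. Python 3.11.15, numpy 2.4.6, pandas 2.3.3 and matplotlib 3.10.9 were used.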

Additional observations from a re-analysis of the deposited data

Results flagged for a closer look

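Probe sets with no single gene name were outside the comparisons above. Of 3852 above the floor on at least 1 array, 49 were at least 2-fold above both others in CBPE and 67 at least 2-fold below both. The brightest of the 49 reached 5228 in CBPE.

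The 5′ control probe set of 18S ribosomal RNA, outside the main measurement, was at 274.3 in CBPE, but at 17.6 in IPE and 27.7 in RPE.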

How the results depend on the processing

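Of the 291 genes above both, 87 remained with a fixed floor of 100 and 172 with the floor at the 60th percentile. Of the 292 below both, 66 remained with a fixed floor of 100 and 175 when all probe sets of a gene had to lie on the same side, while the mean of all probe sets gave 134 genes, 118 of them shared. The fixed floor of 100 left 3 leukocyte, 0 endothelial, 3 pericyte and smooth muscle and 1 chemokine gene above both, and 3 melanin genes below both. The floor at the 60th percentile left 5 endothelial genes. Without _s_at, _x_at and _a_at probe sets the pericyte and smooth muscle count was 3, and averaging all probe sets also gave 3. Higher floors keep fewer dim genes by their construction. The same-side setting shares the floor offset given with the other probe sets. For the other settings the cause was not tested. Quantile normalization gave 397 above and 240 below, and equal medians gave 242 and 367. A floor at the higher of the median and the absent bacterial controls gave 290 and 264. With that floor, 4 of the 151 named members were no longer called. Of the 151 named members, 11 were no longer called after quantile normalization, 8 with equal medians, 97 with a fixed floor of 100, 27 with the floor at the 60th percentile and 41 when probe sets were averaged. No paired analysis was possible because each culture had 1 array, and for the same reason no replicate could be left out. Signals near the floor limit the dim genes.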

Other observations

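Some members outside the lists, chosen after their values were seen, were bright or far from both other cultures. Crym, a thyroid hormone binding protein, was at 233.2 in CBPE, 12.2 in IPE and 64.4 in RPE. Cd200, a surface protein that restrains myeloid cells, was at 457.1, 23.3 and 214.7 in the same order, and Aoc3, an amine oxidase of vessels and smooth muscle, at 520.4, 37.1 and 247.2. Below both, the imprinted gene Mest was at 594.6 in CBPE, 3660.4 in IPE and 1804 in RPE, and the growth factor gene Ptn at 112.1, 838 and 525.9.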
